A study of Mus musculus with 6 samples.

Results

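The granzymes and the genes of the granule that carries them were described across cultured group 2 innate lymphoid cells (ILC2s) of the mouse lung. The set was named gene by gene, with earlier results of these data known. It held the granzymes Gzma, Gzmb and Gzmc, the pore protein gene Prf1, the granule proteoglycan gene Srgn, and granzyme inhibitor genes Serpinb9 and Serpinb6b. All 7 had a value in the table, out of 18122 genes. RNA was sequenced in 3 ICOS KO libraries, labelled with the genotype C.129S4-Icostm1Shr/J, and in 3 wild-type (WT) libraries, labelled BALB/C BYJ. ICOS is a co-stimulatory receptor, and the comparison asks how ILC2s lacking it differ. Strain name and Icos allele differ together between the labels, so an effect of the missing receptor and one of other strain differences cannot be told apart. In both groups the cells were sorted as ILC2s from lung and cultured before lysis, and 10 pg of RNA per library was amplified as cDNA with a SMARTer low-input kit. The design text mentions duplicates, while 3 libraries per group were present and used. Nothing in the labels ties a library to its own mouse or culture. The p-values therefore rest on library-to-library spread, part or all of which may be technical.

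Granzymes are serine proteases that lymphocytes store in secretory granules. In the cytotoxic pathway they leave the granule together with perforin, which opens the membrane of a target cell to them, and inside the granule they are bound to the proteoglycan serglycin. Cells that make granzymes protect themselves with cytosolic serpins, which trap proteases in an inactive complex. ILC2s are best known for type 2 cytokines rather than for killing.

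Libraries held between 13738062 and 15543034 estimated counts in ICOS KO and between 14976130 and 18736474 in WT. Icos itself was measured at 140, 170 and 161 CPM (depth-normalised counts) in the ICOS KO libraries, against 434, 462 and 501 CPM in the WT libraries, a log2 fold change of -1.57 ± 0.10 (SE, adjusted p = 1.27e-05, edgeR). Transcript from the locus was therefore lower in all 3 ICOS KO libraries but still present. All 16 genes of an ILC2 list were tested, and their summed level was 12330 to 13043 CPM in ICOS KO libraries and 12009 to 13234 CPM in WT libraries. The cytokine gene Il5 averaged 6040 ± 309 CPM in ICOS KO and 6451 ± 532 CPM in WT, and the transcription factor gene Gata3 averaged 752 ± 53.0 CPM in ICOS KO and 866 ± 50.9 CPM in WT (SD, n = 3 each). Il5 alone thus made up a large part of that sum. Of the list Areg, Klrg1, Arg1 and Il1rl1 rose and Icos and Rora fell by edgeR, where 1.29% of all genes tested rose and 2.01% fell. The Il1rl1 call was lost in 6 of 18 alternatives (adjusted p up to 0.214: library totals alone, no filter, and without ICOS KO replicate 3 or any WT library) and the Rora call without ICOS KO replicate 3, WT replicate 1 or WT replicate 2 (up to 0.104). Thy1, a surface gene of the list, was low, at 8.24 CPM in ICOS KO and 12.9 CPM in WT (adjusted p = 0.143, edgeR).

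The start regions of the granzymes and of the granzyme B inhibitor are shown because their transcripts moved in opposite directions, or, for Gzmc, stayed at the floor. Each runs from 250 bases before to 20 bases after the RefSeq transcript start (GRCm38.p6), 5′ to 3′ on the strand of the gene. Capitals mark letters of an AP-1 (TGANTCA), CRE (TGACGT) or RUNX (TGTGGT) motif found on either strand. Gzma lies on the minus strand at chr13:113100962-113101231, Gzmb on the minus strand at chr14:56262315-56262584, Gzmc on the minus strand at chr14:56234638-56234907, and Serpinb9 on the plus strand at chr13:33004291-33004560.
Gzma: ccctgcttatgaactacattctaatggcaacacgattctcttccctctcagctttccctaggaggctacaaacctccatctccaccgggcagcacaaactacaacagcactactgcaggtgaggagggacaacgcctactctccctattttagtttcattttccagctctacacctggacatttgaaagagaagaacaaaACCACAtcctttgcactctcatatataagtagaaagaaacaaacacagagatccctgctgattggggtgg
Gzmb: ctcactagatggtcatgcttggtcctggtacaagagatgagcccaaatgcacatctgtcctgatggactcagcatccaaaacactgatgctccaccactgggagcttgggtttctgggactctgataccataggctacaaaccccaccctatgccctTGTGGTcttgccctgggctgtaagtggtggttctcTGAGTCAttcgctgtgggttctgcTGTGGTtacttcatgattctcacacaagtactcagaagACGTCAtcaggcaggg
Gzmc: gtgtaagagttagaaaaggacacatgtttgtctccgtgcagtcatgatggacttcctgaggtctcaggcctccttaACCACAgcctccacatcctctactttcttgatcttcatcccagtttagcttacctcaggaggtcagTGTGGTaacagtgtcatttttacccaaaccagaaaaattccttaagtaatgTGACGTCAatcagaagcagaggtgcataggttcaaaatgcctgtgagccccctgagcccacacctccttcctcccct
Serpinb9: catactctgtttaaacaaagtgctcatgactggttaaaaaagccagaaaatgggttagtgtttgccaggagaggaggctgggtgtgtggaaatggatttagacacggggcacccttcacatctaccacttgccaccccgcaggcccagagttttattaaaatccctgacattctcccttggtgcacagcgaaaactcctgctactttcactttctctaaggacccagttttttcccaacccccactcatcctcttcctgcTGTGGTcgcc

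The RUNX letters occurred once in the Gzma window, in 2 places in the Gzmb window and in 2 places in the Gzmc window. Gzmb alone of the 7 members held the AP-1 letters, 58 bases before the start. CRE letters lay in the windows of 4 members, Gzmb, Gzmc, Prf1 and Srgn; in Gzmc they read on both strands and overlap. In windows of 300 bases, AP-1 letters were in 7.81%, CRE letters in 7.51% and RUNX letters in 16.8% of 32851 mouse promoters, against 1, 4 and 6 of the members' 8 windows. Srgn has 2 RefSeq starts and so 2 of these windows, with CRE and RUNX letters in that of its second start. GATA factor letters (AGATAA) were in no member window and in 11.2% of promoters. STAT factor letters (TTCNNNGAA) were in the Gzmb window only and in 8.30% of promoters. The exact letters TATAAA, 1 form of the TATA box, were in the window of the first Srgn start only, 98 bases before it, and in 13.6% of promoters. Other forms were not searched for, and the Gzma window holds the letters tatataag, which this search does not count. The Gzmb promoter is a textbook case for AP-1, RUNX and CREB/ATF binding in T cells. Such letters describe the sequence, and neither their presence nor their absence shows binding here. Gzmc, with RUNX and CRE letters, was near 0 in every library, and Serpinb9, with RUNX letters 11 bases past the start, fell.

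Both granzymes with abundant transcripts rose. Gzma, which encodes a tryptase-like granzyme that cuts after basic residues, lies at chr13:113093825-113100981 (mm10, minus strand). It had 423, 613 and 684 CPM in the ICOS KO libraries, against 136, 181 and 184 CPM in the WT libraries. The lowest ICOS KO library stood above the highest WT library by more than the whole spread of the WT group. The mean was 573 ± 135 CPM in ICOS KO and 167 ± 26.8 CPM in WT (SD, n = 3 each), 3.43-fold higher, with a log2 fold change of 1.78 ± 0.17 (SE, adjusted p = 0.00022, edgeR's quasi-likelihood test with Benjamini-Hochberg adjustment). Only 1.34% of the 13691 genes tested had a larger change in either direction.

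Gzmb, which encodes the granzyme that cuts after aspartate and activates caspases, lies at chr14:56258838-56262260 (minus strand). It had 321, 353 and 502 CPM in ICOS KO libraries, against 197, 184 and 232 CPM in WT libraries. The groups did not overlap, and ICOS KO replicate 3 was the highest library for both granzymes. The mean was 392 ± 96.6 CPM in ICOS KO and 204 ± 24.8 CPM in WT, 1.92-fold higher (log2 fold change 0.94 ± 0.16 SE, adjusted p = 0.00694, edgeR). Without WT replicate 2 the adjusted p was 0.0564, so the call rested on that library.

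Gzmc, a close neighbour of Gzmb on chromosome 14 (chr14:56231441-56234656) known from activated cytotoxic cells, was barely detected. It had 0, 7 and 2 counts in the ICOS KO libraries and 0, 9 and 1 counts in the WT libraries. It did not pass the filter on low counts and has no fold change here. A count of 3 corresponded to 0.193 to 0.218 CPM in ICOS KO libraries and 0.160 to 0.200 CPM in WT libraries, so a difference in Gzmc was not detectable at this depth. Of 10 mouse granzyme genes listed, Gzmm was the only other one with a value, at 2, 2 and 3 counts in ICOS KO and 5, 11 and 1 counts in WT, and it was not tested either. The remaining 6 (Gzmd, Gzme, Gzmf, Gzmg, Gzmk and Gzmn) were not analysed here.

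**Figure D1:**
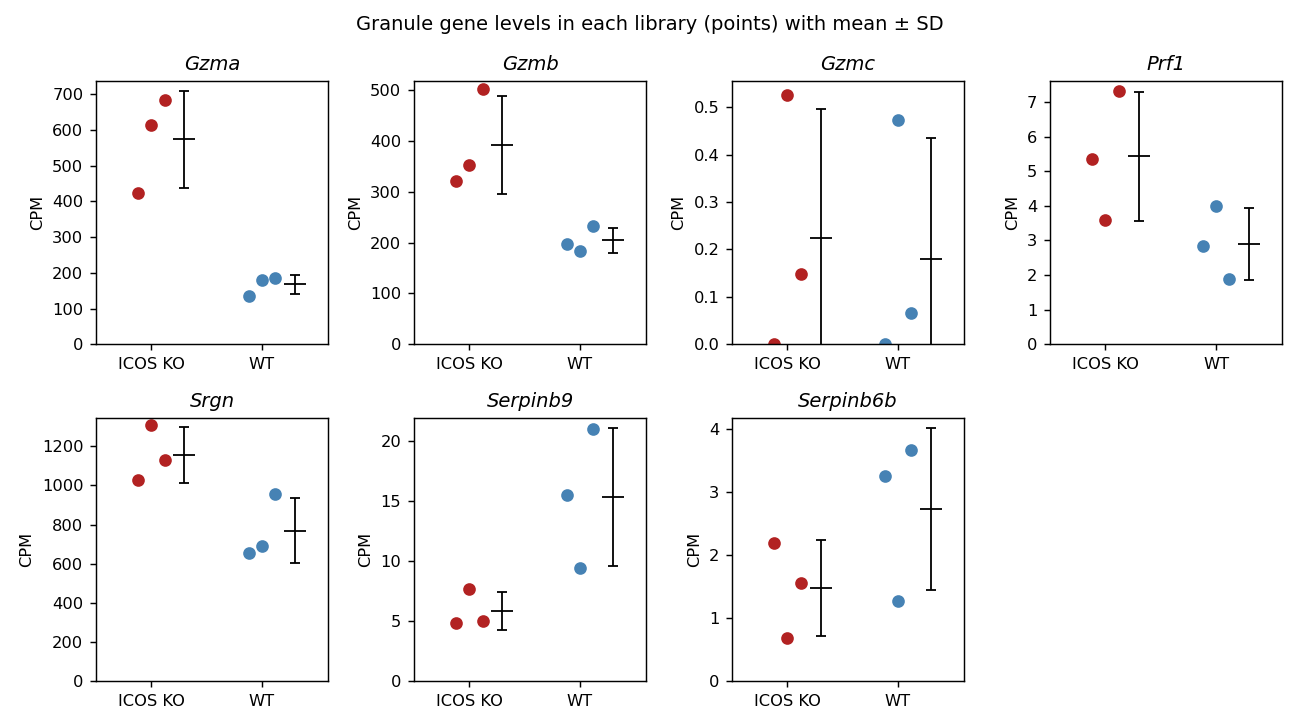
Level of the 7 genes (CPM, TMM-normalised, linear axis from 0 with its own range in each panel), ICOS KO left and WT right; points are libraries, and the bars beside them give mean ± SD (n = 3), stopped at 0 for Gzmc. Gzma (573 against 167 CPM), Gzmb and Srgn are higher in every ICOS KO library, Serpinb9 (5.82 against 15.3 CPM) is lower in every one, and Prf1, Serpinb6b and Gzmc overlap.

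Divided by exon length, the make-up of the granzyme transcripts differed as well. Gzma made up 65.3% to 71.2% of the CPM per kb summed over the 4 measured granzyme genes in ICOS KO libraries (67.5% ± 3.21, SD, n = 3), against 49.7% to 58.2% in WT libraries (53.7% ± 4.28, SD, n = 3). In ICOS KO Gzma was thus the more abundant granzyme per length in every library, while in WT it was level with Gzmb in replicate 1 and above it in replicates 2 and 3. The ratio of Gzma to Gzmb per kb was 1.88, 2.48 and 1.94 in ICOS KO and 0.989, 1.40 and 1.13 in WT; this ratio was looked at after the values were seen and was not tested. The summed granzyme level was 644, 856 and 1030.2 CPM per kb in ICOS KO and 273, 309 and 345 CPM per kb in WT. Gzma and Gzmb therefore ranked high in both groups. Per kb, Gzma exceeded 99.4% of tested genes in ICOS KO and 97.3% in WT, and Gzmb exceeded 98.2% in ICOS KO and 96.9% in WT.

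Prf1 encodes perforin, the pore protein that carries granzymes into a target cell (chr10:61297833-61304680, plus strand). It had 5.35, 3.60 and 7.34 CPM in ICOS KO, against 2.83, 3.99 and 1.90 CPM in WT. WT replicate 2 lay above ICOS KO replicate 2, so the groups overlapped. The log2 fold change was 0.89 ± 0.38 (SE), close to that of Gzmb, but the spread was larger and the test was not passed (adjusted p = 0.219, edgeR). These values rested on 48 to 99 counts per ICOS KO library and 29 to 76 counts per WT library. Per kb, Prf1 averaged 2.10 ± 0.723 CPM in ICOS KO and 1.13 ± 0.406 CPM in WT, where Gzmb averaged 273 ± 67.3 CPM in ICOS KO and 142 ± 17.3 CPM in WT. Perforin transcript was thus in the lower part of the tested genes in both groups, above 33.5% of them in ICOS KO and above 21.9% in WT.

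Srgn encodes serglycin, the proteoglycan core on which granzymes are stored (chr10:62493833-62527451, minus strand), and it was the most abundant member in CPM. It had 1029.6, 1311 and 1130.0 CPM in ICOS KO libraries, against 654, 692 and 958 CPM in WT libraries. The groups did not overlap, although WT replicate 3 lay close to ICOS KO replicate 1. The mean was 1157 ± 143 CPM in ICOS KO and 768 ± 165 CPM in WT, 1.51-fold higher (log2 fold change 0.59 ± 0.14 SE, adjusted p = 0.045, edgeR). This call was fragile: the adjusted p was 0.119 without ICOS KO replicate 2, 0.145 without ICOS KO replicate 3, 0.199 without WT replicate 1, 0.214 without WT replicate 2, and 0.0585 with scaling by library totals alone. Per kb, Gzma and Srgn stood at 570 ± 134 and 527 ± 64.9 CPM in ICOS KO, a gap smaller than their spread, and at 166 ± 26.7 and 350 ± 75.3 CPM in WT.

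**Figure D2:**
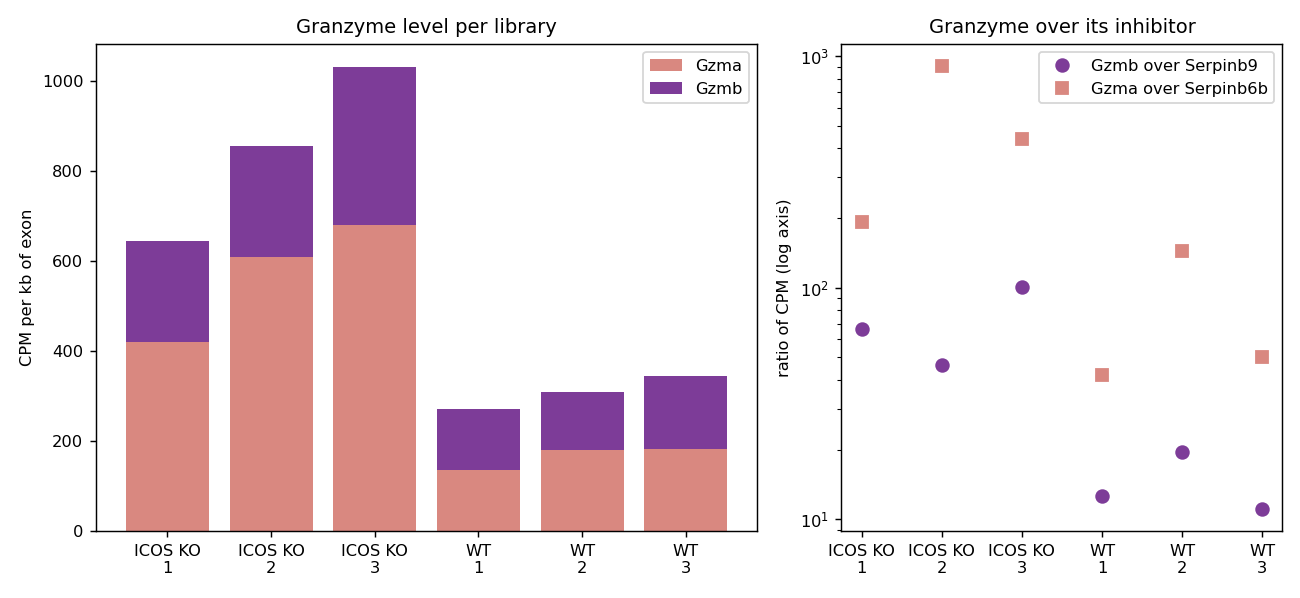
Left, CPM per kb of exon in each library, with Gzmb stacked on Gzma; right, Gzmb over Serpinb9 and Gzma over Serpinb6b in CPM within each library (log axis), ICOS KO libraries left of WT. Stacked bars reach 644 to 1030 in ICOS KO and 273 to 345 in WT, and the Gzmb to Serpinb9 ratio is 46.2 to 101 in ICOS KO libraries and 11.0 to 19.5 in WT libraries.

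Of the inhibitor genes 1 fell and the other was not called. Serpinb9, whose product (SPI6) inhibits granzyme B, lies at chr13:33003250-33017957 (plus strand). It had 4.84, 7.66 and 4.97 CPM in ICOS KO libraries, against 15.6, 9.45 and 21.0 CPM in WT libraries. Every ICOS KO library was below every WT library, with ICOS KO replicate 2 and WT replicate 2 closest to each other. The mean was 5.82 ± 1.59 CPM in ICOS KO and 15.3 ± 5.78 CPM in WT, 2.64-fold lower in ICOS KO (log2 fold change -1.40 ± 0.30 SE, adjusted p = 0.0281, edgeR). The adjusted p was 0.138 without ICOS KO replicate 3, 0.10 without WT replicate 1, 0.0891 without WT replicate 3 and 0.0597 with limma voom.

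Serpinb6b, whose product inhibits granzyme A in mice, lies close to it on chromosome 13 (chr13:32965209-32979067, plus strand). It had 2.19, 0.676 and 1.56 CPM in ICOS KO libraries, against 3.25, 1.26 and 3.67 CPM in WT libraries. The groups overlapped through WT replicate 2, and the log2 fold change of -0.87 ± 0.54 (SE) did not pass the test (adjusted p = 0.385, edgeR). Only 9 to 34 counts per ICOS KO library and 24 to 62 counts per WT library stood behind it. Both serpins belong to families of near copies on chromosome 13, so estimated counts could have been divided between relatives.

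Each granzyme was also set beside its own inhibitor. A ratio between a gene that is higher and one with a lower mean exceeds the fold of either gene by construction, and the Serpinb6b difference itself did not pass its test. The ratio of Gzmb to Serpinb9 CPM was 66.4, 46.2 and 101 in ICOS KO libraries, against 12.7, 19.5 and 11.0 in WT libraries, 4.85-fold higher in geometric mean. The ratio of Gzma to Serpinb6b was 193, 907 and 440 in ICOS KO libraries, against 42.0, 144 and 50.3 in WT libraries, 6.33-fold higher. Neither ratio overlapped between groups, and the exact two-sided permutation test gave p = 0.1 for both, the smallest that 3 against 3 libraries allow. For Gzmb to Serpinb9 this outcome was fixed in advance, since Gzmb was higher and Serpinb9 lower in every ICOS KO library. It adds nothing to the values of the single genes. With any 1 library left out the log2 differences stayed between 1.99 and 2.55 for Gzmb to Serpinb9 and between 2.12 and 3.23 for Gzma to Serpinb6b. The smallest p that 2 against 3 allows is 0.1; Gzmb to Serpinb9 gave 0.1 each time, and Gzma to Serpinb6b gave 0.2 (exact permutation test) without ICOS KO replicate 2 or 3 or WT replicate 1 or 3.

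In all, 4 of the 6 members tested were called at an adjusted p under 0.05, where 3.29% of the 13691 genes tested were called in either direction. Gzma, Gzmb and Srgn rose, where 1.29% of genes did, and Serpinb9 fell, where 2.01% did. The groups did not overlap for these same 4, as for 24.4% of all tested genes. Because the members were named with earlier results of these data known, the shares over all genes are background only. The median log2 fold change of the 6 was 0.74, against -0.00 over all genes tested. Leaving out ICOS KO replicate 3, WT replicate 1 or WT replicate 2 left 2 of the 6 called. Since RNA was measured in bulk, more cells that make a transcript and more transcript per cell cannot be told apart.

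**Figure D3:**
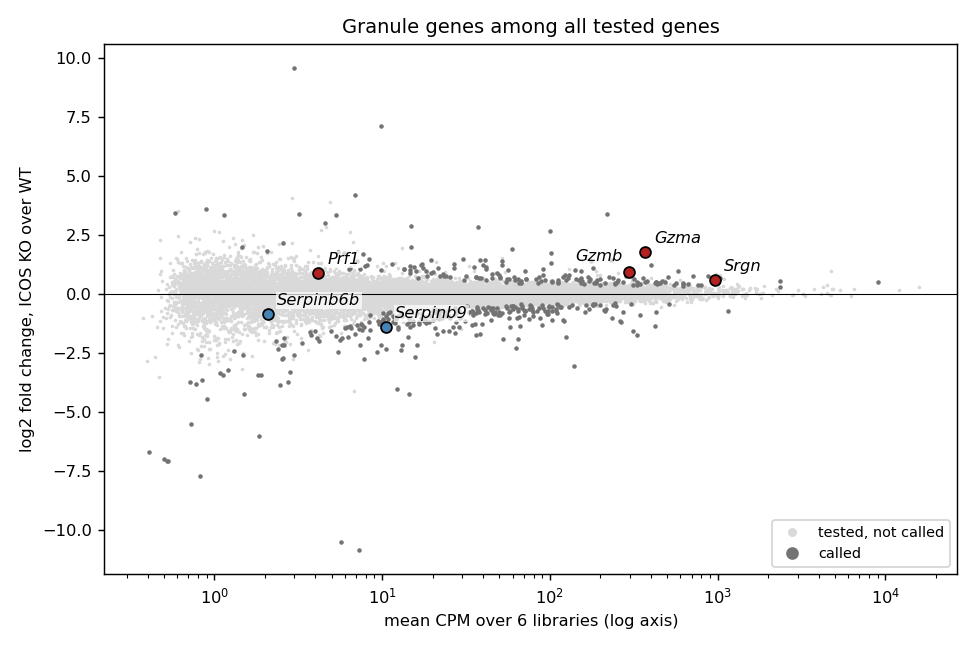
Log2 fold change (ICOS KO over WT) against mean CPM (log axis) for the 13691 tested genes, dark grey where called, with the 6 tested members in red above 0 and blue below it. Gzma (1.78), Gzmb (0.94) and Srgn (0.59) lie above 0 among abundant genes; Serpinb9 (-1.40), Serpinb6b (-0.87) and Prf1 (0.89) lie among genes of low level, where the cloud is wide.

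Other granule genes were called in both directions or not called. For each list below, the background over all 13691 genes tested was 1.29% called higher and 2.01% called lower. Of a list of 14 granule content genes, 12 were tested, and 1 rose (Srgn) and 1 fell, with a median log2 fold change of -0.18. The one that fell was Cd63, a tetraspanin of granule and lysosome membranes, at 19.2 ± 0.861 CPM in ICOS KO and 38.8 ± 4.0 CPM in WT (log2 fold change -1.01, adjusted p = 0.00188, edgeR). Lamp1, a lysosome membrane protein gene, averaged 267 ± 38.2 CPM in ICOS KO and 290 ± 19.7 CPM in WT and was not called (adjusted p = 0.590, edgeR).

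Among 10 genes that process or sort granzymes, 2 rose and 1 fell, with a median of 0.04. Ctsc, the dipeptidase that activates granzymes, averaged 113 ± 24.4 CPM in ICOS KO and 111 ± 9.57 CPM in WT (log2 fold change 0.03, adjusted p = 0.922, edgeR). Lgmn, an asparagine-specific lysosomal protease, averaged 164 CPM in ICOS KO and 95.2 CPM in WT (0.79, adjusted p = 0.00324, edgeR), and Ctsh, an aminopeptidase that can process granzyme B, 134 CPM in ICOS KO and 89.0 CPM in WT (0.59, adjusted p = 0.00528, edgeR). Ctsl, a lysosomal endopeptidase, fell to 35.3 CPM in ICOS KO, against 65.5 CPM in WT (-0.89, adjusted p = 0.0108, edgeR). Without WT replicate 2 the calls of Ctsh (adjusted p = 0.0564, edgeR) and Ctsl (0.0656) were lost.

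Of 24 genes of granule movement and fusion, 23 were tested and only Stxbp2 was called. It encodes Munc18-2, which acts on the fusion machinery, and averaged 173 CPM in ICOS KO and 113 CPM in WT (log2 fold change 0.62, adjusted p = 0.00508, edgeR). The list's median was 0.00, and 9 of the 23 had an unadjusted p under 0.05 (edgeR). The groups did not overlap for 5 that were higher and 4 that were lower in ICOS KO. Over all genes tested, 11.9% were so separated higher and 12.5% lower. Rab27a, the GTPase that docks granules, averaged 24.5 ± 7.05 CPM in ICOS KO and 24.5 ± 2.54 CPM in WT. Of 14 tested genes for proteins that granzymes cleave, none was called by edgeR with all libraries, 2 had an unadjusted p under 0.05, and the median was 0.06. The most abundant of them, Hmgb2, averaged 1500 CPM in ICOS KO and 1199 CPM in WT (adjusted p = 0.0898, edgeR), and was called in 6 of 18 alternatives: DESeq2 (0.0383), voom quality weights (0.0248), edgeR corrected for length and GC (0.0357), with a replicate block (0.0217) or with both (0.0129), and without ICOS KO replicate 1 (0.0215). Casp8, a caspase gene, averaged 521 CPM in ICOS KO and 491 CPM in WT (adjusted p = 0.589, edgeR).

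Of 19 serpin genes listed 8 were tested, and 5 fell and none rose, where 2.01% of all tested genes fell and 1.29% rose. The other 3 (Serpinb2, Serpinb6a and Serpinb6b) were not called, and the median log2 fold change of the 8 was -1.14. Serpinb1a, an inhibitor of neutrophil serine proteases, had 73.9, 78.1 and 73.8 CPM in ICOS KO libraries, against 162, 144 and 186 CPM in WT libraries (-1.12, adjusted p = 0.000286, edgeR). Serpina3g, an inhibitor of cathepsins, had 177, 152 and 160 CPM in ICOS KO libraries, against 406, 349 and 331 CPM in WT libraries (-1.15, adjusted p = 0.00016, edgeR). Both were well apart between groups, and their calls held in all 18 alternatives.

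Serpinb9b, a close relative of Serpinb9, had 1.87, 2.33 and 4.08 CPM in ICOS KO libraries, against 11.0, 6.83 and 11.3 CPM in WT libraries (-1.82, adjusted p = 0.0136, edgeR). Leaving out WT replicate 1 gave an adjusted p of 0.0747 (edgeR), and leaving out WT replicate 3 gave 0.0514. Serpina3f, a close relative of Serpina3g, averaged 4.33 CPM in ICOS KO and 10.6 CPM in WT (adjusted p = 0.0282, edgeR), and its call was lost without ICOS KO replicate 2 or 3 or WT replicate 1 or 2 (adjusted p up to 0.159). Serpinb6a, an abundant relative of Serpinb6b, was not called: it averaged 123 ± 6.68 CPM in ICOS KO and 112 ± 8.34 CPM in WT (0.14, adjusted p = 0.458, edgeR). The number of serpins that fell was 2 to 3 without ICOS KO replicate 3, WT replicate 1 or WT replicate 3.

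**Figure D4:**
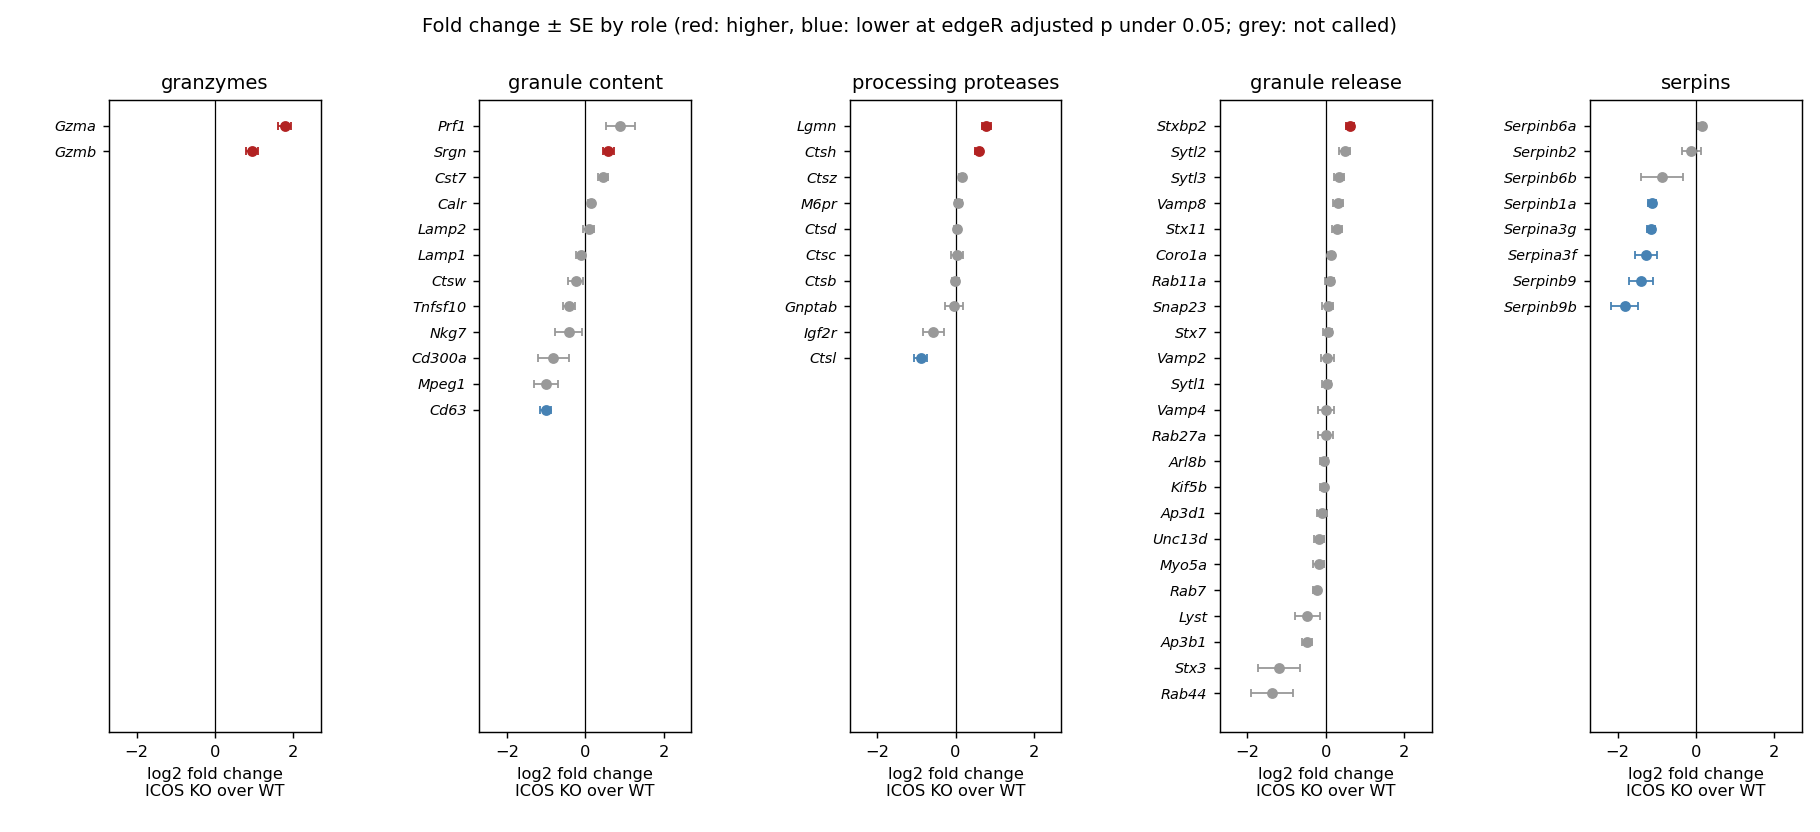
Log2 fold change (ICOS KO over WT) with SE of every tested gene of 5 role lists, red where higher and blue where lower at an adjusted p under 0.05 (edgeR), grey where not called; the line is 0. The called serpins lie between -1.82 and -1.12, Gzma at 1.78 and Gzmb at 0.94, and processing genes lie on both sides of 0.

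Gzmb shares a chromosome 14 cluster with mast cell and neutrophil protease genes. Of 15 genes listed for the cluster, 8 had a value and 4 were tested. Gzmc, a closer neighbour, was near 0 in both groups and was not among the 4. Of the 4 genes of this cluster tested, Gzmb was higher and the other 3 were lower in ICOS KO. Cma1, a mast cell chymase gene at chr14:55941451-55944675, had 54 to 103 counts in ICOS KO libraries and 419 to 554 counts in WT libraries (log2 fold change -2.18, adjusted p = 0.000448, edgeR). Ctsg, the cathepsin G gene, had 2 to 11 counts in ICOS KO and 73 to 103 counts in WT (-3.30, adjusted p = 0.00324, edgeR). Mcpt8, a basophil protease gene, had 14 to 30 counts in ICOS KO and 125 to 185 counts in WT (-2.46, adjusted p = 0.00381, edgeR).

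Markers of other cells that could carry granzymes were read beside these values. For the marker lists too, the background over all 13691 genes tested was 1.29% called higher and 2.01% called lower. Of 10 tested mast cell and basophil genes 7 fell and none rose, and the summed level of their list, which holds Cma1 and Mcpt8 too, was 62.2 to 72.4 CPM in ICOS KO libraries and 359 to 414 CPM in WT libraries. It moved with the fall of Serpinb9 and the other serpins and against the rise of Gzmb, and its part in either was not tested. Of 17 NK cell and ILC1 genes 7 were tested, and Tbx21 and Ncr1 fell. Ncr1, the gene of the NK receptor NKp46, had 0, 0 and 1 counts in ICOS KO libraries and 27, 23 and 25 counts in WT libraries. The sum of this list was 25.5 to 34.5 CPM in ICOS KO and 32.6 to 41.2 CPM in WT, and the groups overlapped. Klrd1 was at 0 in all ICOS KO libraries and had 17, 4 and 6 counts in WT libraries, and Il12rb2 was at 0 in all ICOS KO libraries and had 3, 3 and 9 counts in WT libraries. Of the 7 tested genes 2 had a higher mean in ICOS KO: Itga2, an integrin gene, averaged 7.87 CPM in ICOS KO and 5.14 CPM in WT (adjusted p = 0.250, edgeR), and Ccl5, a chemokine gene, 7.89 CPM in ICOS KO and 6.28 CPM in WT (adjusted p = 0.570, edgeR). The part of these cells in the granzyme values was not tested.

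Of 10 tested T cell genes, 2 rose (Trbc1 and Trbc2) and 1 fell (Cd3e), and the sum was 463 to 591 CPM in ICOS KO libraries and 349 to 398 CPM in WT libraries. Of the 10, 7 had a positive log2 fold change and 3 a negative one. Trbc1 averaged 123 CPM in ICOS KO and 58.9 CPM in WT. Cd3e, a signalling chain that T cells need at their surface, averaged 2.30 CPM in ICOS KO and 8.86 CPM in WT. Cd3g and Cd247 of the same complex had higher means in ICOS KO and were not called. Cd3g averaged 63.2 CPM in ICOS KO and 48.1 CPM in WT (adjusted p = 0.214, edgeR). Cd247 averaged 25.9 CPM in ICOS KO and 16.5 CPM in WT (adjusted p = 0.0828, edgeR). Cd8a and Cd8b1, which mark cytotoxic T cells, were at 0 in all ICOS KO libraries. In WT libraries Cd8a had 0, 9 and 13 counts and Cd8b1 had 3, 17 and 0 counts, and neither gene was tested. Trbc1 and Trbc2 were higher together with the granzymes, and their part in the rise was not tested. Trac and Trdc, the other constant genes tested from the list, were not called. Trac averaged 0.578 CPM in ICOS KO and 0.987 CPM in WT, and Trdc 8.17 CPM in ICOS KO and 7.18 CPM in WT. Constant segments of the receptor gamma chain, not counted in this list, were named because their profiles were among the 4 nearest to Gzmb. That they were higher along with Gzmb was thus given by this choice. Trgc1 averaged 246 CPM in ICOS KO and 115 CPM in WT (adjusted p = 0.00162, edgeR). Trgc4 averaged 212 CPM in ICOS KO and 127 CPM in WT (adjusted p = 0.00777, edgeR). Their part in the granzyme rise was not tested. The call of Trbc1 held in all 18 alternatives. That of Trbc2 was lost on correction for length and GC (adjusted p = 0.0551, edgeR) or without ICOS KO replicate 3 or WT replicate 1 or 2 (up to 0.0799). That of Cd3e was lost without ICOS KO replicate 3 or any WT library (0.0615 to 0.143, edgeR). Of the myeloid list the sum was 79.6 to 115 CPM in ICOS KO and 138 to 180 CPM in WT, and 1 of 10 tested genes (Csf1r) fell, a call lost without ICOS KO replicate 3 (adjusted p = 0.0616, edgeR) or WT replicate 1 (0.0824). Of 7 tested B cell genes 2 rose (Cd79b and Igkc; sum 2814 to 3065 CPM in ICOS KO, 1634 to 2559 CPM in WT), and of 6 tested epithelial and stromal genes Epcam rose (sum 144 to 276 CPM in ICOS KO, 146 to 256 CPM in WT); their part was not tested. The calls of Cd79b and Igkc held in 9 and 11 of 18 alternatives. Both were lost with library totals alone (adjusted p 0.0662 and 0.0636, edgeR), and the Cd79b call with limma voom (0.0574) and without ICOS KO replicate 3 or any WT library (up to 0.198). The Igkc call was lost without ICOS KO replicate 2 or 3 or WT replicate 1 or 2 (up to 0.191).

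Among transcription factors tied to granzyme expression, 23 of 25 were tested, 1 rose and 3 fell, with a median of -0.12. Over all genes tested, 1.29% rose and 2.01% fell. Tbx21 encodes T-bet, which drives Gzmb in cytotoxic cells, and had 6, 0 and 2 counts in ICOS KO libraries and 54, 43 and 17 counts in WT libraries (log2 fold change -3.43, adjusted p = 0.0375, edgeR). Its call was lost with any library but ICOS KO replicate 1 left out (adjusted p 0.0527 to 0.201, edgeR), and with no filter on low counts (0.0505). Eomes, the other T-box factor of cytotoxic cells, had 1, 0 and 0 counts in ICOS KO and 17, 1 and 2 counts in WT and was not tested. Both factors were low in both groups. Tbx21 averaged 0.178 CPM in ICOS KO and 2.07 CPM in WT, and Eomes 0.0215 CPM in ICOS KO and 0.358 CPM in WT. Their part in the granzyme values was not tested.

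Id3, an inhibitor of E proteins, fell to 19.4 CPM in ICOS KO, against 43.1 CPM in WT (log2 fold change -1.16, adjusted p = 0.00504, edgeR). Irf4 averaged 49.2 CPM in ICOS KO and 80.3 CPM in WT (-0.71, adjusted p = 0.0104, edgeR), and Maf, a factor that drives Il10 in T cells, 62.7 CPM in ICOS KO and 38.3 CPM in WT (0.71, adjusted p = 0.0138, edgeR). Both calls were lost without ICOS KO replicate 3 (adjusted p 0.0672 for Irf4 and 0.0799 for Maf, edgeR), WT replicate 1 (0.0544 and 0.0520) or WT replicate 2 (0.0799 and 0.0958). Runx3, a RUNX factor of cytotoxic lymphocytes, averaged 64.9 ± 3.71 CPM in ICOS KO and 58.3 ± 1.28 CPM in WT and was not called (0.15, adjusted p = 0.431, edgeR). Batf, an AP-1 family factor, averaged 214 ± 26.0 CPM in ICOS KO and 160 ± 9.44 CPM in WT and missed the threshold (0.42, adjusted p = 0.0614, edgeR).

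The genes whose profile over the 6 libraries was nearest to Gzma, by Euclidean distance of centred log2 CPM among 9795 genes, were Gm19585 (0.30), Gm15947 (0.45), Il10 (0.46) and St3gal6 (0.52). Il10, the gene of an anti-inflammatory cytokine, had 149, 158 and 158 CPM in ICOS KO libraries, against 39.4, 48.9 and 52.4 CPM in WT libraries. It shared with Gzma the lowest value of each group in replicate 1. Gzmb was rank 41 by distance to Gzma (1.13), but at that same distance Gzma was only rank 2737 by distance to Gzmb. Nearest to Gzmb were Aldoc (0.20), a glycolytic aldolase gene, Trgc1 (0.28) and Trgc4 (0.33), constant segments of the T cell receptor gamma chain, and Gimap7 (0.34), a lymphocyte GTPase gene. Trgc1 had 200, 227 and 312 CPM in ICOS KO libraries, against 116, 113 and 118 CPM in WT libraries, highest, as Gzmb was, in ICOS KO replicate 3. These distances describe 6 libraries and were not tested, and Gzmc was too low to be ranked.

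**Figure D5:**
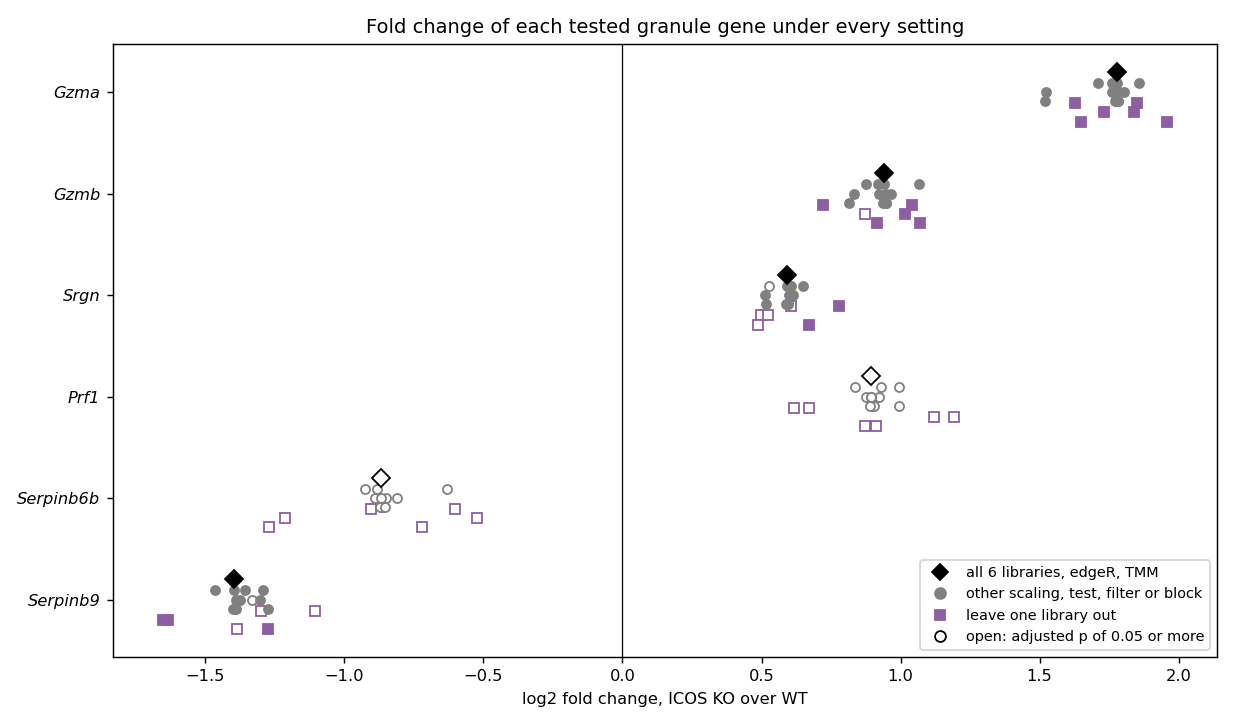
Log2 fold change (ICOS KO over WT) of the 6 tested members with all libraries (diamond), under another scaling, test, filter or block (circles) and with 1 library left out (squares), filled where the adjusted p was under 0.05. Gzma stays between 1.52 and 1.96 and is called throughout, Gzmb lies between 0.72 and 1.07, and Prf1 and Serpinb6b are called under none.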

How the data were processed

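RNA-seq of 6 libraries was used, as the estimated counts per gene that the authors deposited. Partek 10.0, STAR 2.7.8, DESeq2 and the build mm10 are named, per the submitters' processing notes. Annotation, counting method and use of strand: not given in the sources used here. Of the deposited values 38.9% were not whole (tolerance 1e-06), Gzma and Srgn among them, and they were rounded before testing. Library totals ran from 13738062 to 18736474. Reads carry no molecular identifiers and may be PCR copies, so floors of 3 counts cover counting error only.

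Genes were filtered with filterByExpr (13691 of 18122 kept), scaled by TMM, and tested with edgeR 4.0.16 (glmQLFit, glmQLFTest; R 4.3.3) on the 2 groups with no covariate, Benjamini-Hochberg adjusted over all genes at 0.05. CPM are TMM-normalised; SE are of the log2 fold change. Alternatives used limma 3.58.1 and DESeq2 1.42.0. The test was checked on simulated data. No pair of libraries agreed within sampling noise. Level per kb divides by merged exon length; coordinates are of GRCm38 (mm10), and promoters are from RefSeq (GRCm38.p6). No member overlapped another annotated gene.

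Members and gene lists were chosen with earlier results of these data known. Named were all members, called list genes (at most the 6 with the smallest p) or the 2 most abundant where none was called, and the 4 nearest profiles among genes of at least 5 CPM. Motif searches used both strands. Lamp1, Ctsc, Rab27a, Serpinb6a, Eomes, Runx3, Batf, Il5, Gata3, Cd3g and Cd247 were named after their values were seen. So were Thy1, Itga2, Ccl5, Klrd1, Il12rb2, Cd8a, Cd8b1, Trac, Trdc, Gzmm, Serpinb2 and Kit. Log2 ratios between members were compared with the exact two-sided permutation test (20 possible splits).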

Additional observations from a re-analysis of the deposited data

How the results depend on the processing

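None of the 6 tested members changed direction in any of the alternatives, and Gzma was called in all 18 (log2 fold change 1.52 to 1.96). Prf1 (0.62 to 1.19) and Serpinb6b (-1.27 to -0.52) were called in none of 17. Gzmb was lost once (0.87, adjusted p = 0.0564, edgeR without WT replicate 2; leaving out 1 library gave 0.72 to 1.07). Srgn was 0.53 with library totals alone (adjusted p = 0.0585, edgeR) and 0.49 to 0.78 on leaving out 1 library, Serpinb9 -1.33 with limma voom (adjusted p = 0.0597) and -1.65 to -1.11 on leaving out 1 library, and 2 to 4 members were called when 1 library was left out. Over all genes the 451 calls became 201 at 2-fold or more, 929 with DESeq2, 906 with voom quality weights and 193 to 1090 with 1 library left out; the highest came without ICOS KO replicate 1, and 216 were called without ICOS KO replicate 3, 193 without WT replicate 1 and 194 without WT replicate 2. Of the calls 39.0% were higher in ICOS KO, 28.2% with library totals alone and 58.0% with the length and GC trend removed (97.6% of genes had both values). The cause of these shifts was not tested. Replicate numbers were not taken as pairs: deviations of same-numbered libraries correlated at 0.087, 0.078 and 0.064, although each library correlated best with its own number. With a replicate block 784 genes were called, and with the block and the length and GC trend removed 958. Counts under 10 in every library limit Gzmc, and 9 counts in ICOS KO replicate 2 limit Serpinb6b.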
